A study of Mastomys natalensis with 4 samples.

Results

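The Wnt, Notch, Hedgehog and BMP pathways pass signals between neighbouring cells during development and in the renewal of epithelia such as the stomach lining. Their transcripts were examined here in mucosa of the stomach of Mastomys natalensis. In this African rodent the histamine-producing endocrine cells of the stomach, the enterochromaffin-like (ECL) cells, readily form tumours. The members were all probe sets on the mouse U74 array whose annotation held a single gene symbol belonging to a fixed set of families. For Wnt these were the Wnt ligands, Frizzled receptors, Dishevelled proteins, the secreted Sfrp and Dkk inhibitors, Axins and the Lef1 and Tcf7-type factors. For Notch they were the receptors, the Dll and Jag ligands and the Hes and Hey factors, for Hedgehog Shh, Ihh, Ptch1, Smo and the Gli factors, and for BMP the Bmp genes, their receptors and the Smad proteins. This gave 76 genes of 8251 named on the array, read by 97 of its 12488 probe sets: 45 for Wnt, 17 for Notch, 8 for Hedgehog and 27 for BMP and SMAD. The rule used names alone and no measured value, but it was chosen with earlier results of these data known.

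All animals received loxtidine, written loxitidine in the labels, which blocks the histamine H2 receptor and so suppresses gastric acid. The group of 8 weeks (2 samples) was labelled as ECL cell hyperplasia and the group of 16 weeks (2 samples) as ECL cell neoplasia. Genotype, strain, age and sex of the animals, and whether a sample was 1 animal or a pool, are not given in the sources used here. Untreated mucosa was not analysed here. Treatment time and lesion stage cannot be told apart, and the comparison asks which transcripts differed between these stages. Mucosa is a mixture of cells, and in such a sample fewer cells of a type and less RNA per cell cannot be told apart.

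As background, Wnt ligands bind Frizzled receptors with the co-receptors Lrp5 and Lrp6, which stops the Axin and Apc complex from destroying beta-catenin, so that beta-catenin can work with Lef1 and Tcf7-type factors in the nucleus. Notch receptors are cut when a neighbour's Dll or Jag ligand binds, and the freed part switches on Hes and Hey repressors. Shh and Ihh release Smo from its inhibitor Ptch1, which activates the Gli factors. BMP ligands make their receptors phosphorylate Smad1 and Smad5, which enter the nucleus with Smad4, while Smad6 and Smad7 damp the signal. In the stomach Shh is known as a product of acid-secreting parietal cells, and BMP and Wnt signals come largely from the connective tissue around the glands.

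The 4 arrays had median intensities of 15.4 to 19.2, and 55.3% to 62.4% of their probe sets lay above a floor of 12.15. Values below it were treated as equal in the log2 differences, but not in counts of groups without overlap. Probes were made for mouse sequence, so a dim value may reflect mismatches and does not show that a transcript was missing. The 5 tested markers of the parietal cell list were Atp4a, Atp4b, Cblif, Car2 and Aqp4. The proton pump subunit Atp4a read 4034 to 5304. The other pump subunit, Atp4b, read 1091 and 1701 at 8 weeks, compared with 915 and 634 later. Aqp4 was dim, at 14.6 to 49.5. Of the ECL and neuroendocrine markers 6 of the 8 on the array were measurable, while histidine decarboxylase was not among them. In 8-week sample 1 the intestinal-type marker Tff3 read 493, against 13.2 to 17.8 in the other samples, so results are also given without a sample where that alters them. Gastrin (Gast), the hormone of the antrum, read 328 and 170 in the 8-week samples, compared with 25.8 and 63.0 later, and the part of sampled stomach region in the results was not tested. All differences are log2 differences, 16 minus 8 weeks, with the standard error (SE) from limma and n = 2 samples per group. This SE is drawn toward the spread of all tested probe sets and does not come from a gene's replicates alone.

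Many of these genes, above all ligands, were too dim to test. Of the 97 members 59 lay above the floor on at least 2 arrays and were tested (60.8%, against 63.5% of all probe sets), which covered 52 of the 76 genes. Of the ligand probe sets 15 of 34 were tested (44.1%), and of the other members 44 of 63 (69.8%). A further 29 members lay under the floor on all 4 arrays and 9 lay above it on 1 array. The 24 genes with no tested probe set were the ligands Wnt2b, Wnt3, Wnt4, Wnt5a, Wnt7a, Wnt7b, Wnt8a, Wnt11, Jag2, Bmp2, Bmp5, Bmp8a, Bmp8b and Bmp10, the receptors Fzd6, Bmpr1a and Smo, the inhibitors Sfrp1, Sfrp4 and Dkk1, and Dvl3, Gli2, Smad4 and Bmp2k, a kinase induced by BMP2 and no ligand. The highest value among them was 28.0, for Wnt3 in 16-week sample 2, which read 7.9 to 9.2 elsewhere. Sfrp1, a secreted Wnt inhibitor, read 5.7 and 5.7 in the 8-week samples, compared with 4.8 and 5.6 at 16 weeks, and Smad4, the partner of all receptor-activated SMADs, read 2.8 and 4.2 against 4.7 and 7.6. For these genes the arrays gave no measurement of a difference.

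No member passed the test. With limma and p-values adjusted by Benjamini-Hochberg over the 7883 tested probe sets, 0 of 59 members and 0% of all tested probe sets had an adjusted p under 0.05, and the smallest adjusted p was 0.301. At an unadjusted p under 0.05 there were 7 members (11.9%), against 1100 probe sets or 14.0% of all tested. Of these members 6 were higher at 16 weeks (10.2%, against 8.08% of all tested) and 1 was lower. The share of members past this line was thus near that of all probe sets. Among the 7 was Wnt5b, which was tested through its 16-week arrays alone. Without 8-week sample 1 the count was 2 of 56 (3.57%), where 7.54% of all probe sets passed, and with the bacterial hybridisation controls used to align the arrays it was 17 of 59, where 23% of all probe sets passed this line.

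Groups that did not overlap were counted with no model. In 20 members (33.9%) both 16-week values lay above both 8-week values, against 28.7% of all tested probe sets, and in 9 members (15.3%) both lay below, against 20.6%. On a common median these counts were 13 and 14 of 58, and the shares over all probe sets were not computed on that scale. The median difference was 0.15 over the members and 0.09 over all tested probe sets, and 39 of 59 members (66.1%) were above 0, against 56.3% of all. This lean to higher values moved with the scale of the arrays: the share above 0 was 61.4% after quantile normalization, 46.6% on a common median and 79.7% on the hybridisation controls. On those scales the median over all tested probe sets was 0.02, -0.11 and 0.41, and the members' median lay above it by 0.06, 0.05 and 0.09, as it did by 0.06 on the deposited scale. With a lower floor, at the 20th percentile of the arrays, it lay below that of all probe sets (a difference of -0.03), and without the filter on dim probe sets both were 0. Without 8-week sample 1 the members' median was -0.0016 and lay 0.01 above that of all probe sets. Wnt5b and Smad3, counted among the 20 and the 39 members, were tested through their 16-week arrays alone, and their direction followed from the filter. The plot of cumulative shares shows the members' curve beside that of all probe sets.

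**Figure D1:**
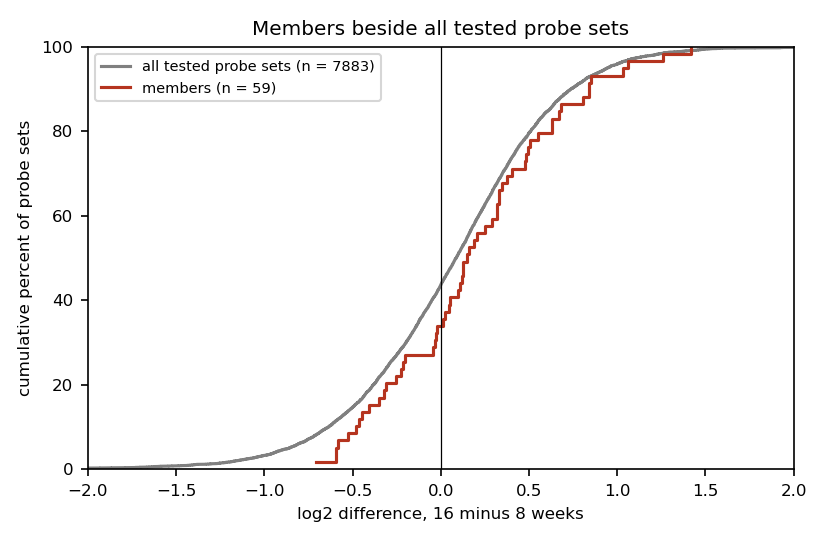
Cumulative percent of probe sets (vertical axis) by log2 difference, 16 minus 8 weeks (horizontal axis), for the 59 tested members and all 7883 tested probe sets. The members' curve lies slightly to the right of the other, with medians of 0.15 and 0.09, and none of the members lies below -0.71.

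Among Wnt ligands Wnt5b and Wnt10a read higher in both 16-week samples. Wnt5b, a ligand known mainly for signalling that does not need beta-catenin, read 9.6 and 9.3 at 8 weeks, both under the floor, and 37.5 and 28.1 at 16 weeks (probe set 103513_at). The groups were apart, and the level was at least 2.67-fold higher at 16 weeks. Wnt5b entered the test through its 16-week arrays alone, and setting both 8-week values to the floor gives them no spread, so its standard error and p are not given. Wnt10a, a ligand of the beta-catenin branch, read 24.1 and 24.7 against 43.7 and 44.3 (0.85 ± 0.23; limma adjusted p = 0.316). Its replicates lay within 0.04 of each other, and with a sample left out the difference stayed between 0.83 and 0.87. The close relative of Wnt5b, Wnt5a, read 12.2 and 7.4 against 2.0 and 3.2, under the floor or just above it, so neither a difference nor a direction could be measured.

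The other Wnt ligands gave no separation or split readings. Wnt1 read 53.5 and 52.8 against 58.7 and 49.6, a difference of 0.02 ± 0.24, and Wnt6 gave 0.01 ± 0.25. Both signs turned negative on a common median and after quantile normalization. Wnt10b had 2 tested probe sets of opposite sign, -0.35 ± 0.49 and 0.84 ± 0.46, and in both of them sample 2 exceeded sample 1 in each group. Wnt3a gave -0.20 ± 0.28. For the family the counts were 5 tested ligand probe sets above 0, with Wnt5b among them through the filter, and 2 below, from 16 on the array.

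Among Frizzled receptors Fzd2 was the member with the smallest p that read lower at 16 weeks. It read 91.7 and 88.7 in the 8-week samples, compared with 64.1 and 47.7 at 16 weeks (probe set 93681_at), with groups apart and a difference of -0.71 ± 0.27 (limma adjusted p = 0.353). The difference was -0.93 to -0.33 on the 3 other scales, and -0.49 without 16-week sample 2. Of 8 tested markers of fibroblasts and matrix 5 read lower at 16 weeks, among them Col3a1 (-1.53 ± 0.30), while Dcn (0.68 ± 0.23) and Col1a2 (0.52 ± 0.31) read higher with groups apart. Their mean log2 level was 7.69 and 7.64 in the 8-week samples, compared with 7.06 and 6.96 at 16 weeks. Of the smooth muscle markers 6 of 8 read lower, with mean levels of 7.70 and 7.53 against 6.96 and 6.69. Their part in the Fzd2 reading was not tested.

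Fzd4, a receptor for Norrin as well as for Wnt ligands, read 251 and 385 against 368 and 282, and its groups overlapped (0.05 ± 0.32, negative on a common median). Its 2 other probe sets were not tested, with values of 1.0 to 15.1. Fzd3 had 2 probe sets that separated the groups in opposite directions: one read 72.0 and 86.5 against 99.1 and 122.9 (0.48 ± 0.26), the other 17.4 and 18.7 against 14.1 and 5.7 (-0.46 ± 0.24). A direction for Fzd3 therefore could not be given. Fzd1, Fzd7, Fzd8 and Fzd9 lay between 0.09 and 0.32, with overlapping groups, and Fzd7 and Fzd8 turned negative on a common median.

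Secreted Wnt inhibitors that could be measured read higher or did not separate. Sfrp2, which binds Wnt ligands outside the cell and is made by stromal cells, read 19.8 and 36.5 against 43.0 and 73.3, a difference of 1.06 ± 0.43 (limma adjusted p = 0.364). The groups did not overlap, yet each group's samples differed by 0.88 and 0.77 on the log2 scale, nearly as much as the groups. Dkk3, a divergent Dickkopf protein, read 28.4 and 32.9 against 38.3 and 42.7 (0.40 ± 0.24), and Dkk2 gave 0.04 ± 0.47 with overlap and a negative sign on a common median.

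Inside the cell the scaffold genes went both ways. Dvl1, which relays the signal from Frizzled, read 178 and 166 against 122 and 155 (-0.32 ± 0.26, but 0.06 on the hybridisation controls), and Axin1, the scaffold of the beta-catenin destruction complex, 116 and 130 against 106 and 81.1 (-0.41 ± 0.26). Axin2, a target gene of beta-catenin signalling that feeds back on it, read 37.0 and 38.5 against 52.6 and 43.8 (0.35 ± 0.24). The groups were apart for each of these 3 genes, and none of the differences exceeded 2 SE. Dvl2 gave 0.38 ± 0.33 with overlap.

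Lef1, a nuclear partner of beta-catenin, had the largest difference among members that were above the floor on all arrays. It read 77.9 and 146 in the 8-week samples, compared with 259 and 251 at 16 weeks (probe set 103628_at), a difference of 1.26 ± 0.37 or 2.39-fold (limma adjusted p = 0.325). Both 16-week samples were nearly equal and above both 8-week samples, while the 8-week samples differed by 0.91 between themselves. Without 8-week sample 1 the difference was 0.80, and without 8-week sample 2 it was 1.71. On the 3 other scales it was 1.03 to 1.64. A second Lef1 probe set, designed on the same sequence record, read 5.7 to 9.8 on all arrays and gave no measurement.

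Lef1 is also known as a factor of T cells and of early B cells, and lymphocyte markers read higher in the same samples. All 8 tested lymphocyte markers, of 10 listed, were above 0 on the deposited scale, against 6 of 7 on a common median. Of all tested probe sets 56.3% were above 0 on the deposited scale, and of the 2628 dimmest 66.4%. Cd3d was tested through its 16-week arrays alone and could not come out below 0. In the 8-week samples the mean log2 level of the 8 markers was 4.35 and 4.58, in the 16-week samples 4.99 and 5.20. Cd4, a coreceptor of helper T cells, read 24.2 and 20.7 against 42.1 and 54.0, and the T cell receptor chain Cd3e read 15.5 and 27.0 against 26.3 and 25.0. The part of lymphocytes in the Lef1 reading was not tested.

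The related factors Tcf7l2 and Tcf7l1 had 2 tested probe sets each. Both of Tcf7l2, the main partner of beta-catenin in gut epithelium, read higher: 87.2 and 127 against 168 and 133 (0.51 ± 0.30), and 29.3 and 28.6 against 35.6 and 45.5 (0.48 ± 0.25). The groups were apart on both and the sign held on all 3 other scales. Tcf7l1, mostly a repressor, gave 0.29 ± 0.24 and -0.05 ± 0.64, neither of which kept its sign on all scales. For Wnt as a whole 20 of 27 tested members were above 0 with a median of 0.25, and the direction of Wnt5b among them followed from the filter. The median was 0.11 after quantile normalization, 0.03 on a common median, where 14 of 27 were above 0, and 0.49 on the hybridisation controls.

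**Figure D2:**
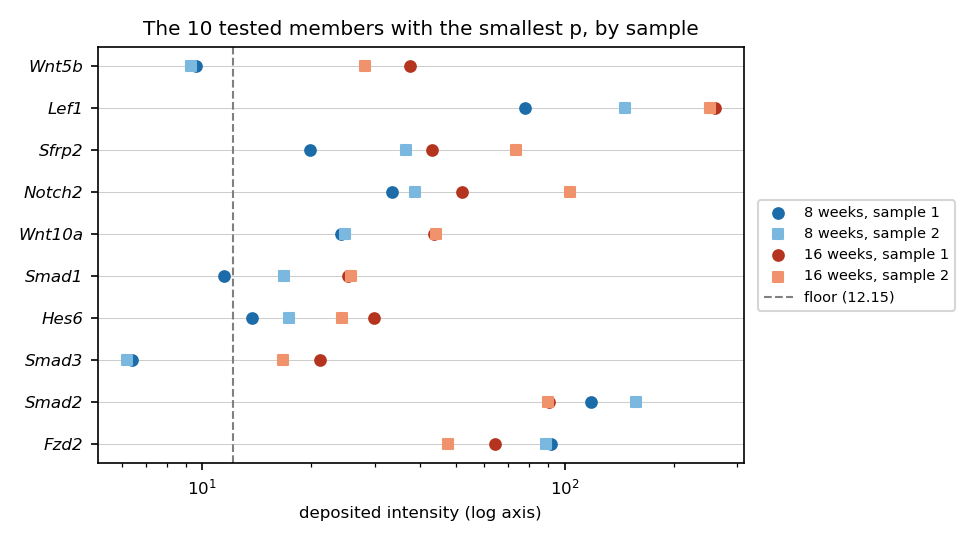
Deposited intensity in each sample (log axis) for the 10 tested members with the smallest p. Circles and squares are samples 1 and 2, blue is 8 weeks, red and orange 16 weeks, and the dashed line is the floor of 12.15. For 8 genes both 16-week samples lie above both 8-week samples, and for Smad2 and Fzd2 both lie below. Wnt5b and Smad3, counted among the 8 genes, have both 8-week values under the floor and were tested through their 16-week arrays alone. Their direction followed from the filter, and the p that placed them here is no support for a difference.

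All 4 Notch receptors were above 0 on the deposited scale, and Notch2 had the smallest p of them. It read 33.4 and 38.6 in the 8-week samples, compared with 52.2 and 103 at 16 weeks (probe set 101342_at), a difference of 1.03 ± 0.39 (limma adjusted p = 0.353). The groups were apart, but the 16-week samples differed by 0.98 between themselves, and without 16-week sample 2 the difference was 0.54. A second Notch2 probe set read 4.2 to 6.8 and was not tested. Notch1, the receptor best known in gastric stem cells, read 46.8 and 49.8 against 58.6 and 52.7 (0.20 ± 0.24), and its other probe set read 4.9 to 7.2. Notch3, a receptor of vascular smooth muscle, read 63.4 and 53.7 against 61.9 and 65.5 (0.13 ± 0.24). Both Notch1 and Notch3 turned negative on a common median. Notch4 rested on sample 1 of each group, with 17.0 and 5.7 against 36.6 and 4.4.

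Of the 6 tested Hes and Hey factors 5 were below 0 on the deposited scale. Hes1, the main Notch target of gut epithelium, read 125 and 130 against 140 and 112, a difference of -0.03 ± 0.25. Hey1, a Notch target of vessels, read 59.7 and 60.9 against 53.6 and 65.6 (-0.02 ± 0.25). In both the groups overlapped, and both signs turned positive on the hybridisation controls. Hes2, Hes3 and Hes5 gave -0.21 ± 0.24, -0.31 ± 0.44 and -0.48 ± 0.36, of which Hes2 and Hes3 turned positive on the hybridisation controls. The groups were apart for Hes2 and Hes5 and overlapped for Hes3.

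Hes6 was the member of this family that lay above 0. It is known as an inhibitor of Hes1 that promotes neuronal and neuroendocrine differentiation, and it read 13.7 and 17.3 against 29.7 and 24.3 (probe set 97334_at). The groups were apart, with a difference of 0.80 ± 0.27 or 1.74-fold (limma adjusted p = 0.338). It was 0.64 to 0.97 with a sample left out, and 0.58 to 1.16 on the 3 other scales. Of the 6 tested ECL and neuroendocrine markers 4 were above 0, with mean log2 levels of 5.87 and 5.92 in the 8-week samples, compared with 6.10 and 6.18 at 16 weeks. Their part in the Hes6 reading was not tested. Of the ligands Dll1 was near the floor (7.0 and 12.9 against 12.3 and 10.8). Notch members as a whole had 5 above 0 and 6 below, with a median of -0.02 that was 0.06 after quantile normalization, -0.17 on a common median and 0.36 on the hybridisation controls.

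Of the 6 tested Hedgehog probe sets 0 had groups apart. Among all tested probe sets 28.7% were apart and higher at 16 weeks, and 20.6% were apart and lower. With 6 probe sets the count of 0 gives no result about the pathway. Shh, the Hedgehog ligand of parietal cells, read 26.2 and 35.1 in the 8-week samples, compared with 13.5 and 48.0 at 16 weeks, a difference of -0.25 ± 0.63. Ihh, a ligand of the surface epithelium, read 27.6 and 27.1 against 11.7 and 29.6 (-0.53 ± 0.46). Both were lowest in 16-week sample 1 and highest in 16-week sample 2, and the gap between these samples, 1.83 for Shh and 1.29 for Ihh, exceeded the difference between groups. Without 16-week sample 1 the differences were 0.66 and 0.11, and without 16-week sample 2 they were -1.17 and -1.17.

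Markers of the squamous forestomach, a part of the rodent stomach beside the glandular mucosa, had their lowest and highest mean in the same samples. The mean log2 level of the 6 tested markers was 5.62 and 5.81 in the 8-week samples, compared with 5.31 and 6.68 at 16 weeks, and keratin 13 (Krt13) read 81.5 and 66.6 against 7.9 and 147. Krt4 and Lor had their lowest and highest values in the same samples as Krt13. The other markers did not: Krt6a and Sprr1a were lowest in 8-week sample 1 (55.2 and 11.6), and Trp63 was highest in 16-week sample 1 (21.6). The parietal markers had mean levels of 8.85 and 9.45 against 9.19 and 8.96. The 4 tested markers of pancreatic acinar cells were also highest in mean in 16-week sample 2, at 7.65 and 6.47 against 7.12 and 8.75, and the elastase Cela1 read 834 and 212 against 226 and 1586. Many other genes described here read highest in that sample as well, among them Notch2, Nog, Notch3, Hey1, Sfrp2, Dkk3, Numb and Cd4. The part of these cell types in the readings was not tested.

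Targets and receptor of the pathway stayed within their replicate spread. Ptch1, the receptor and itself a Hedgehog target, read 48.4 and 59.5 against 48.4 and 43.5 on 1 probe set (-0.23 ± 0.25) and 42.2 and 61.2 against 59.7 and 53.3 on the other (0.15 ± 0.29). Gli1, the target most often used as a readout of Hedgehog activity, read 17.5 and 36.0 against 35.2 and 28.3 (0.33 ± 0.41). Its 8-week samples differed by 1.04, and without 8-week sample 1 the difference was -0.19. Gli3 gave 0.12 ± 0.36, with a negative sign on a common median. Against 14.0% of all tested probe sets, 0 of the 6 tested Hedgehog members had an unadjusted limma p under 0.05. On the deposited scale 3 were above 0 and 3 below, with a median of -0.05. The counts above and below were 2 and 4 after quantile normalization, 1 and 5 on a common median and 5 and 1 on the hybridisation controls. Without 8-week sample 1 all 6 were below 0.

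Of the 13 BMP ligand probe sets 5 were tested, and those of Bmp4 disagreed. Bmp4, the stromal BMP of the gut wall, was read by 2 probe sets with groups apart in opposite directions. The first read 65.4 and 70.2 in the 8-week samples, compared with 104 and 87.0 at 16 weeks (0.49 ± 0.25), and the second 62.5 and 51.0 against 49.4 and 28.4 (-0.59 ± 0.35). Each sign held on all 3 other scales, so the arrays gave no direction for Bmp4. With groups apart, leaving out a sample could not turn either sign. Bmp6 read 10.1 and 19.8 against 24.1 and 25.6 (0.68 ± 0.32), with groups apart. Bmp7 and Bmp15 gave 0.19 ± 0.28 and 0.33 ± 0.53 with overlap. Bmp1, which despite its name is a protease that trims collagen precursors, read 62.4 and 101 against 126 and 127 (0.67 ± 0.32), or 0.33 without 8-week sample 1.

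Neither measurable BMP receptor passed the test. Bmpr1b read 18.3 and 15.6 against 9.0 and 12.6 (-0.45 ± 0.24), with groups apart. Bmpr2, the type II receptor, read 39.3 and 24.6 against 32.2 and 13.4 (-0.58 ± 0.51), with overlap, and gave 0.05 without 16-week sample 2. Bmpr1a read 1.6 to 2.9 and was not measured.

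The 3 tested probe sets of the receptor-activated SMADs of the BMP branch had differences above 0, none of which passed the test. Smad1 had 2 probe sets on 1 sequence record. One read 11.5 and 16.8 against 25.3 and 25.8 (probe set 102983_at), with groups apart and a difference of 0.84 ± 0.27 (limma adjusted p = 0.333). The other read 40 and 65.2 against 102 and 61.5 (0.63 ± 0.39) and overlapped. Smad5, which acts beside Smad1, read 21.8 and 21.5 against 22.6 and 32.3 (0.32 ± 0.28), with groups apart. These 3 signs held on the 3 other scales and with any sample left out, although Smad5 then gave values down to 0.06. Where groups were apart, leaving out a sample could not turn the sign.

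The SMADs of the TGF-beta and activin branch read in opposite directions. Smad2 read 119 and 157 against 90.7 and 90.1, with groups apart and a difference of -0.60 ± 0.26 (limma adjusted p = 0.385). Smad3 read 6.4 and 6.2, under the floor, against 21.1 and 16.7, at least 1.54-fold higher. As for Wnt5b, only its 16-week arrays passed the floor, so no standard error or p is given. The inhibitory Smad6 and Smad7 are themselves induced by BMP and TGF-beta signals. Smad6 read 86.1 and 79.3 against 101 and 78.4 (0.11 ± 0.26), and for Smad7 the values were 162 and 191 against 217 and 178 (0.16 ± 0.26). Their groups overlapped and both turned negative on a common median. Of the 15 tested BMP and SMAD members 11 were above 0, among them Smad3, whose direction followed from the filter. The members' median was 0.32. It was 0.20 after quantile normalization, 0.10 on a common median, where 9 of 15 were above 0, and 0.62 on the hybridisation controls.

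**Figure D3:**
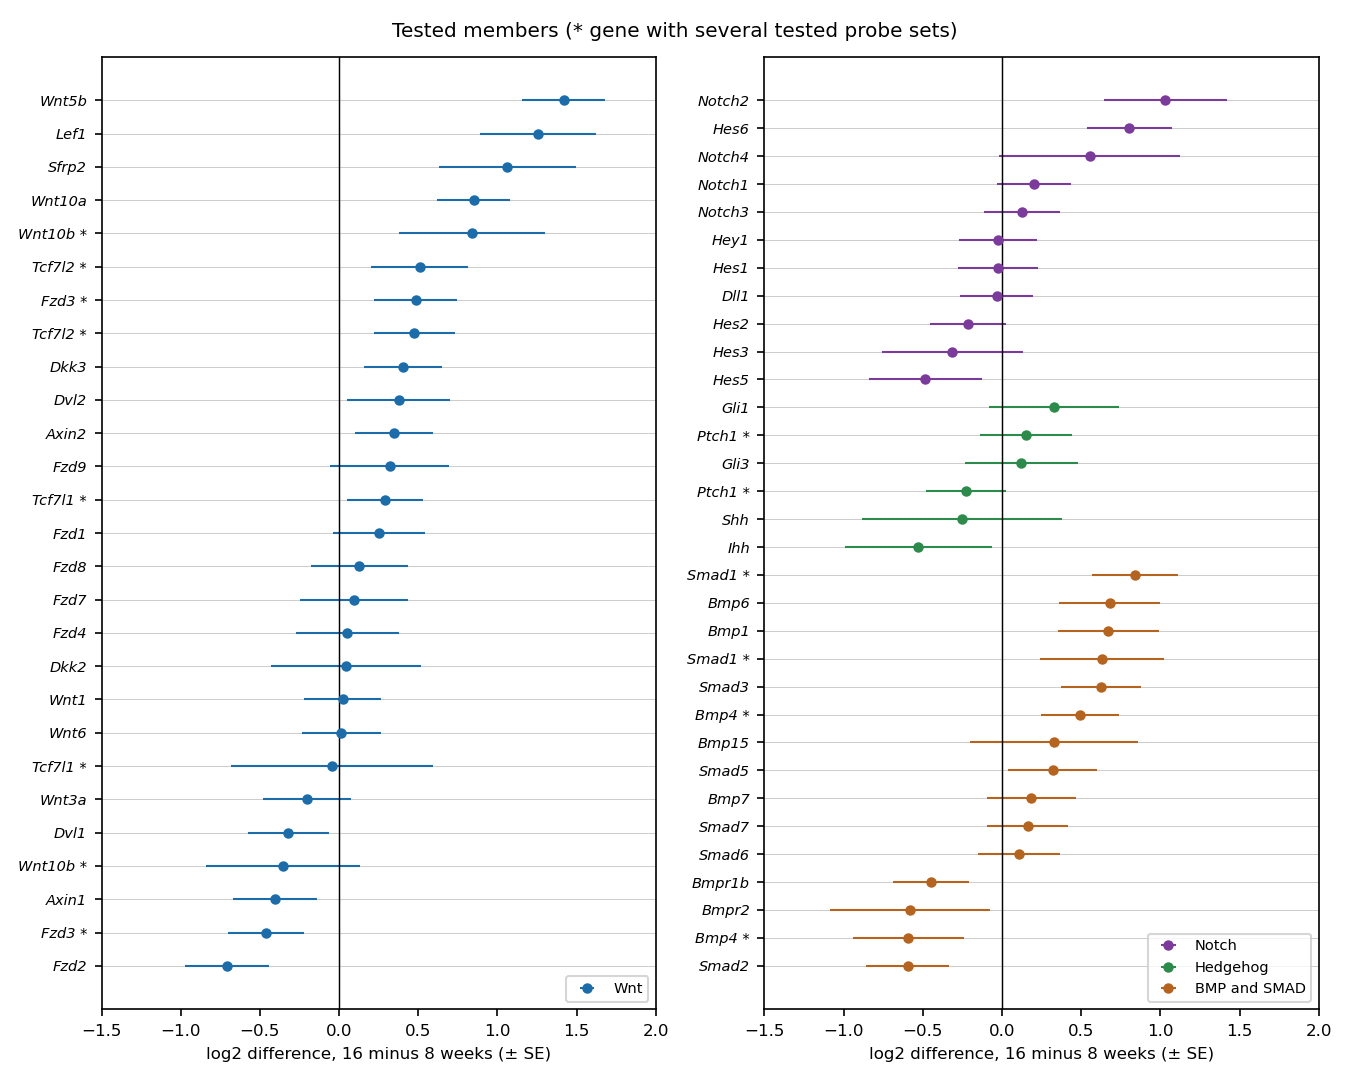
Log2 difference, 16 minus 8 weeks, of each tested member with its standard error (n = 2 per group). The left panel holds 27 Wnt members and the right panel 11 Notch, 6 Hedgehog and 15 BMP and SMAD members, and an asterisk marks genes with several tested probe sets. Wnt5b is highest at 1.42, a lower bound, and Fzd2 lowest at -0.71, and Bmp4, Fzd3, Ptch1, Tcf7l1 and Wnt10b appear on both sides of 0. The bars drawn for Wnt5b and Smad3 rest on 8-week values set to the floor and should not be read as their standard errors.

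Probe sets of a gene differed in sign more often than not. Of the 18 member genes with several probe sets 7 had more than 1 tested, and in 5 of these (Bmp4, Fzd3, Ptch1, Tcf7l1 and Wnt10b) the tested probe sets had opposite signs, while Smad1 and Tcf7l2 kept 1 sign. The other members named for their p were each read by 1 tested probe set. Over the members the median gap between samples of a group was 0.28 at 8 weeks and 0.34 at 16 weeks, against a median size of the difference between groups of 0.35. The corresponding values over all tested probe sets were 0.32, 0.32 and 0.36.

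Other components of the 4 pathways gave no call either. A further 129 symbols were listed, with both old and new names for Tle5, Ccn4 and Ccn5. Of them 94 were on the array and 70 were tested, each by its brightest tested probe set. Of these 37 were above 0 and 33 below, 0 had a limma adjusted p under 0.05, and 11 had an unadjusted p under 0.05 (15.7%, near the 14.0% of all tested probe sets). The median was 0.04, and the split was 33 above and 37 below after quantile normalization, 29 and 40 on a common median and 50 and 18 on the hybridisation controls. By pathway the counts above and below were 11 and 13 for Wnt, 11 and 5 for Notch, 5 and 4 for Hedgehog and 10 and 11 for BMP and SMAD. Those for Wnt were 7 and 17 both after quantile normalization and on a common median, and 17 and 7 on the hybridisation controls. Those for Notch were 10 and 6, 8 and 8, and 14 and 2 on these scales. Both 16-week values lay above both 8-week values in 18 of the 70 genes (25.7%, against 28.7% of all tested probe sets) and below them in 19 (27.1%, against 20.6%). Ccn4 of the Wnt list and Atoh1 of the Notch list were tested through their 16-week arrays alone. Both are counted among the 18 and among the 37 above 0, and their direction followed from the filter. The 11 genes with an unadjusted p under 0.05 kept their sign on the 3 other scales. Their groups did not overlap, so leaving out a sample could not turn a sign.

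Core parts of the Wnt machinery read in different directions. Beta-catenin (Ctnnb1) itself read 684 and 692 in the 8-week samples, compared with 455 and 434 at 16 weeks, a difference of -0.63 ± 0.23 (limma adjusted p = 0.349), which was -0.33 after quantile normalization and -0.25 on the hybridisation controls. The Wnt co-receptor Lrp6 read 32.2 and 27.1 against 58.4 and 52.5 (0.91 ± 0.25), while a second probe set lay under the floor. Ryk, a receptor for Wnt5-type ligands, gave 0.96 ± 0.33 on 1 probe set and -0.37 ± 0.40 on the other. The common Wnt targets Ccnd1 and Myc, named here beyond the rule, gave -0.11 ± 0.28 and -0.23 ± 0.26 with overlapping groups.

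In the Notch pathway 3 modulators read higher. Numb, which inhibits Notch in dividing cells, read 7.9 and 19.6 against 28.7 and 38.6 (1.11 ± 0.34), with a second probe set under the floor. Dlk1, a non-classical Notch ligand of endocrine and stromal cells, read 51.6 and 84.8 against 152 and 125 (1.06 ± 0.33), and was 0.70 without 8-week sample 1. Dtx1, a Deltex ubiquitin ligase, read 22.4 and 32.3 against 48.0 and 47.9 (0.83 ± 0.28).

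Around Hedgehog and BMP 5 further genes had an unadjusted p under 0.05. Gas1, a membrane protein that helps cells receive Hedgehog ligands, read 76.3 and 88.5 against 50.6 and 29.9 (-1.08 ± 0.34; limma adjusted p = 0.329), or -0.70 without 16-week sample 2, and it read lower beside the mixed fibroblast and smooth muscle markers given with Fzd2. Noggin (Nog), which binds and blocks BMP ligands, read 22.7 and 15.1 against 36.0 and 62.8, a difference of 1.36 ± 0.39 (limma adjusted p = 0.324), or 0.96 without 16-week sample 2. Id2, a gene that BMP signals induce, read 444 and 441 against 297 and 246 (-0.71 ± 0.24), whereas its relatives Id1 and Id3, named beyond the rule, gave -0.42 ± 0.34 and 0.41 ± 0.32 with overlap. The type II activin and BMP receptor Acvr2b read 29.8 and 34.7 against 64.7 and 49.9 (0.82 ± 0.27). Gdf3, a ligand of embryonic tissue, gave 1.12 ± 0.30 on 1 probe set and -0.46 ± 0.55 on the other. The first read 8.2 and 12.3 against 33.2 and 21.3, so its 8-week values lay under or just above the floor. Flooring left these 8-week values almost no spread, and the standard error does not measure their replicate spread.

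**Figure D4:**
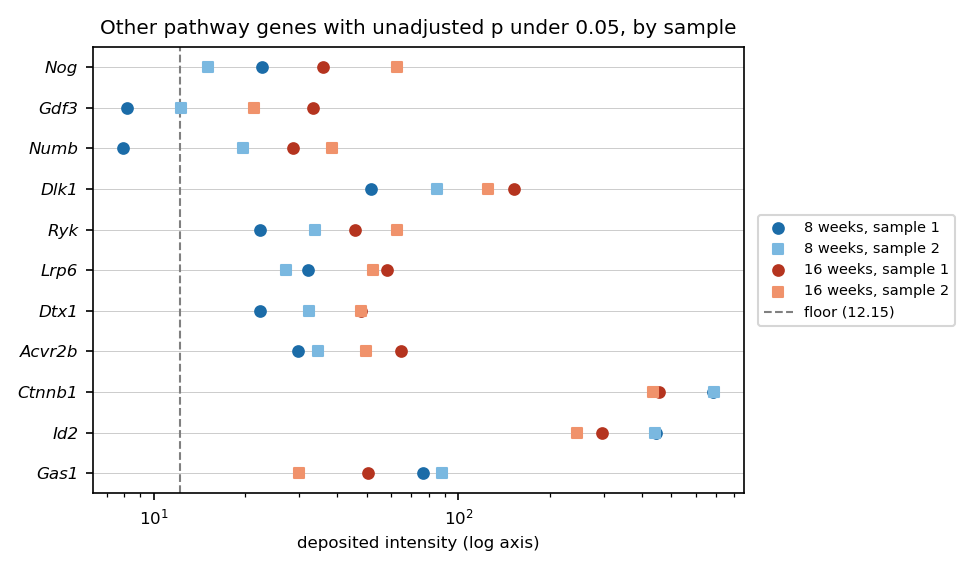
Deposited intensity in each sample (log axis) for the 11 other pathway genes with an unadjusted p under 0.05, with symbols as in the plot of members by sample. In 8 genes both 16-week samples lie above both 8-week samples, and in Ctnnb1, Id2 and Gas1 both lie below.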

How the data were processed

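Per the labels, RNA of 4 mucosa samples was hybridised to the mouse U74 array of Affymetrix. The deposited table holds 1 intensity per probe set and array on a linear scale. The authors' way of computing and scaling the intensities is not stated in any source used here. Trimmed means of the columns lay within 4.76% of their common mean, so the deposited scale was kept. No label says that the replicates are different animals. Each p-value therefore reflects the spread within these 4 samples, which may be technical. It is also not the spread of 1 gene: limma draws each variance toward that of all 7883 tested probe sets. Wnt10a, with gaps of 0.04 and 0.02 between replicates, thus had an SE of 0.23. Values under the floor (12.15, the median over arrays of the 40th percentile) were set to it and log2 was taken. The 7883 probe sets, controls excepted, above it on at least 2 arrays were fitted with limma (3.58.1, R 4.3.3; lmFit, eBayes, 2-sided, Benjamini-Hochberg, threshold 0.05), and the fit was tested on simulated data. An exact permutation test of 2 against 2 cannot give a 2-sided p below 0.333. A floored group makes a difference a lower bound, written "at least".

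Gene names came from the platform annotation: of 12422 probe sets other than controls 10833 had 1 symbol, 396 several and 1193 none. The members and lists were chosen with earlier results of these data known. Values in all samples are given for members with an unadjusted p under 0.05, for the 4 brightest tested per pathway, for every probe set of those genes and for Shh, Ihh, Bmp4, Hes1, Notch1, Wnt5a, Sfrp1 and Smad4; other members' values were added after they were seen. Other scales, floors, filters, a variance trend, a replicate block and each sample left out were tried. No sequences are printed.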

Additional observations from a re-analysis of the deposited data

How the results depend on the processing

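With limma 0 members had an adjusted p under 0.05 under each alternative run. Among all probe sets 22 were called without the filter on dim probe sets and 0 otherwise. Same-numbered samples did not deviate together (correlation -0.05 over 7883 probe sets). With the replicate number as a block 6 of 59 members (10.2%) had an unadjusted limma p under 0.05, against 12.5% of all tested probe sets, and 0 were called.

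The count at an unadjusted p under 0.05 was 17 on the hybridisation controls and 2 to 8 with a sample left out. The count of members without overlap was 29 of 59 in the main run and 45 of 97 without the filter. With a sample left out it was 39 to 44, of 52 to 56 tested members. There 1 group holds a lone sample that is assumed to vary like the others, and a lone sample separates from a pair more easily. Shares over all probe sets were not computed for these runs, so the change from 29 gives no result about the members. The members' median of 0.15 was -0.0564 on a common median, 0.51 on the controls, 0 without the filter and -0.0016 to 0.25 with a sample left out.

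The Wnt median of 0.25 was 0.11 after quantile normalization, 0.0269 on a common median, 0.49 on the controls, 0.0831 with the lower floor, 0.0143 without the filter, 0.11 without shared or reduced probe sets, 0.13 by the brightest probe set of a gene and 0.14 to 0.35 with a sample left out. The BMP and SMAD median of 0.32 was 0.20, 0.10 and 0.62 on these 3 scales, 0.0205 without the filter and 0.16 with probe sets above the floor on all arrays. The Notch median of -0.02 was 0.0557, -0.17 and 0.36 on the 3 scales, 0.0747 with the lower floor, 0.0509 with probe sets above the floor on all arrays and -0.0455 to 0.14 with a sample left out. The Hedgehog median of -0.05 was -0.20, -0.28 and 0.33 on the 3 scales and -0.28 to 0.19 with a sample left out.

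Among the genes that the naming rule picked, signs turned on the controls for Dvl1 (0.0595), Hes1 (0.35), Hey1 (0.36), Ptch1 (0.15) and Shh (0.13), after quantile normalization for Hes1 (0.036), and on a common median for Fzd4 (-0.17), Notch1 (-0.0199), Notch3 (-0.10), the second Ptch1 probe set (-0.0723), Smad6 (-0.12) and Smad7 (-0.0615). Of the other members described, Hes2, Hes3, Dll1 and a Tcf7l1 probe set turned on the controls, Wnt1, Wnt6, Gli3, Dkk2 and the other Tcf7l1 probe set after quantile normalization, and Wnt1, Wnt6, Gli3, Dkk2, Fzd7 and Fzd8 on a common median. With a sample left out signs of picked genes also turned, over ranges of -0.26 to 0.36 for Fzd4, -0.19 to 0.85 for Gli1, -0.19 to 0.14 for Hes1, -0.17 to 0.12 for Hey1, -1.17 to 0.11 for Ihh, -0.12 to 0.42 for Ptch1, -1.17 to 0.66 for Shh and -0.0758 to 0.29 for Smad6. The cause was not tested. Of 59 tested members 35 kept their sign on the 3 scales, 39 with each sample left out, and 29 under both, among them the 7 with an unadjusted p under 0.05. The groups of these 7 did not overlap, so leaving out a sample could not turn their sign. The number of arrays and dim cross-species signals limit the precision.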
